A study of Mus musculus with 3 samples.

Results

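Isolated peaks are the places where Sp9, a zinc finger transcription factor, was recovered on chromatin of the neonatal mouse olfactory bulb with no other listed peak for a long way on either side. They were selected on position alone: the deposited rows were sorted along each assembled chromosome, and a row was kept when at least 300 kb lay between its edges and the nearest listed peak on both sides. The first and last row of each chromosome, 42 rows in all, were left out. The rule kept 575 of 19880 peaks on assembled chromosomes (2.89%, exact 95% interval 2.66 to 3.13%), out of 19979 rows in the list. The distances therefore chose the members, and they are given as a description. Peaks of 1 name or 1 region are not independent, so all intervals of shares cover counting error only.

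The study asked how the related factors Sp8 and Sp9 act in olfactory bulb interneuron development. The chromatin came from CD1 mice of postnatal days 0 to 2, whose whole bulbs were crosslinked with 1% formaldehyde for 10 min and sheared to 200 to 1000 bp. There were 2 immunoprecipitation libraries, made with a homemade antibody against Sp9, and 1 input library made without that antibody, all read as paired ends of 150 bases. The labels name no genotype or further treatment for either group, and they do not state whether each immunoprecipitation used its own animals. Whole bulbs hold neurons, glia and vessels, so a peak cannot be assigned to a cell type.

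Sp factors bind GC-rich DNA through zinc fingers, often near the start of a gene. Sp8 and Sp9 are made in neuroblasts that travel into the bulb and become inhibitory interneurons. Distal regulatory elements of neural genes can lie far from the gene, and genes for neuronal adhesion molecules are known for great length and for gene-poor surroundings. The deposited list gives each peak 1 gene name, 1 score and no distance to the gene. A peak is said here to be named for a gene, which does not place it in a promoter, exon, intron or untranslated region.

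No mm9 genome was used here, so the bases under the peaks are not printed. The sequences that can be read belong to the microRNA genes that gave their names to 28 isolated peaks. Of these genes, 24 had a mature sequence in the RefSeq table (GRCm38.p6). The first 4 shown are the microRNAs of the highest-scoring isolated peaks that had a sequence, and the other 5 carry family names that are well known, a choice made after the values were seen. Bases run 5′ to 3′, and capitals mark the seed, bases 2 to 8, which pairs with target messenger RNAs.
mmu-miR-1904: gUUCUGCUccucuggagggagg
mmu-miR-7224-5p: gGGUAGGCcccucagugaaga
mmu-miR-222-3p: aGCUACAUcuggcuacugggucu
mmu-miR-6368: cUGGGAAGcaguggaggggag
mmu-miR-21c: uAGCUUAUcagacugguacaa
mmu-miR-135a-5p: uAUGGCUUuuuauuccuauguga
mmu-let-7j: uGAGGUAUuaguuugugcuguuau
mmu-miR-195b: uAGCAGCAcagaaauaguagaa
mmu-miR-125b-5p: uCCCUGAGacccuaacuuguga
The 28 mature sequences compared here, from the genes kept for printing, had 28 distinct seeds, so none of them shared a seed. The peak named for Mir1904 (mm9, chr13:110692603-110694157) was 1554 bp wide with a score of 498.36, the highest of the microRNA group. The peak named for Mir222, whose product represses the cell cycle inhibitor Cdkn1b, lay at chrX:18769760-18770541 with a score of 292.29. The peak named for Mir125b-2, a microRNA abundant in neurons, lay at chr16:77814945-77815658 with a score of 80.23, close to the lowest in the list.

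Isolated peaks were of ordinary width and score. The median width was 963 bp, with quartiles of 754.5 and 1253 bp, and the other 19305 placed peaks had a median of 987 bp with quartiles of 785 and 1260 bp. The score, the authors' own value for ranking peaks, had a median of 193 (quartiles 124 and 347) against 211 in the others (quartiles 127 and 354). The 2 distributions overlapped almost wholly, from 351 to 3969 bp in the isolated peaks and from 349 to 22030 bp in the rest. Of the isolated peaks, 268 (46.6%, interval 42.5 to 50.8%) scored at or above the list's median of 210.06, where the share over all placed peaks was 50.1%. Scores under 100 belonged to 74 (12.9%, interval 10.2 to 15.9%) against 12% of all placed peaks, and scores over 1000 to 7 (1.22%, interval 0.491 to 2.49%) against 1.11%. A width of 2000 bp or more was found in 23 (4%, interval 2.55 to 5.94%) against 3.64%. Each of these 4 shares over all placed peaks lay inside the interval of the isolated peaks.

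Width and score rose together in isolated peaks as elsewhere, with a Spearman correlation across peaks of 0.757 in the 575 and 0.745 in the others. Among the isolated peaks, distance to the nearest peak bore almost no relation to score (Spearman correlation -0.046) or to width (-0.039). Over the whole range of distances the medians were not ordered. They were lowest in peaks with a neighbour under 10 kb away and highest at 50 to 100 kb, where the median width was 1015 bp and the median score 233. From there the medians were lower again in the isolated class.

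**Figure D1:**
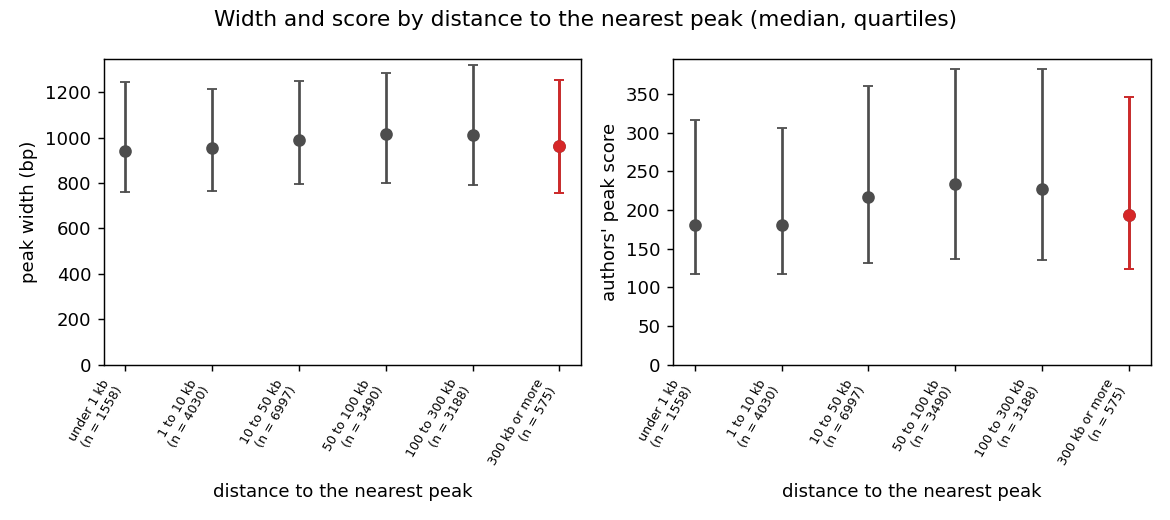
Median (points) and quartiles (bars) of peak width in bp (left) and of the authors' peak score (right) for peaks grouped by distance to the nearest listed peak, with the isolated peaks in red; rows at chromosome ends are left out. The isolated class has medians of 963 bp and 193, between the closest peaks and those 50 to 300 kb apart, and the quartile bars of all classes overlap.

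**Figure D2:**
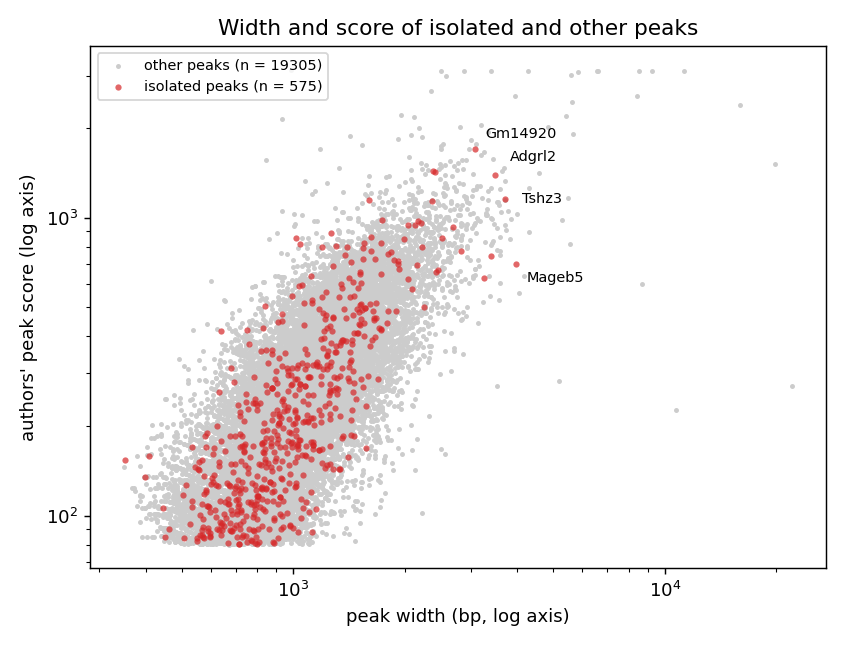
Peak width (bp, log axis) against the authors' peak score (log axis) for 575 isolated peaks (red) and 19305 other placed peaks (grey); each point is 1 peak. Isolated peaks lie within the cloud of the others and are missing from its upper right end, since their widest was 3969 bp and their highest score 1706.32.

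A peak could also be compared with the pair of peaks on either side of its gaps. The isolated peak scored higher than both neighbours in 171 cases, lower than both in 178 and between them in 226. The neighbours had a median score of 205, so isolated peaks as a set did not stand above the peaks that border their gaps. However, 289 of the isolated peaks had an isolated neighbour, so the comparison is partly between isolated peaks. Matching counts over all placed peaks are not given here, so these cases do not show how isolated peaks differ from others.

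The most isolated peak of the list was named for Adgrl2, a latrophilin, which is an adhesion receptor that links synaptic partners. It lay at chr3:148650278-148653776, with 1761.88 kb to the peak named for Ttll7 on the left and 2687.55 kb to the peak named for Ifi44 on the right. This peak was also the third widest of the 575, at 3498 bp, and the fourth by score, at 1390.72, while its neighbours scored 199.47 and 384.58. Other peaks at such distances were mostly ordinary. Col11a1, a fibrillar collagen gene, named a peak of 887 bp and score 192.98 at least 1553.31 kb from any other. Slitrk6, a leucine-rich synaptic membrane protein of the inner ear and brain, named one of 834 bp and score 162.65 at 1514.39 kb. Cdh18, a classical cadherin, named one of score 129.51 at 1420.5 kb.

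In all, 15 isolated peaks had 1000 kb or more free on both sides, and 151 had 500 kb or more. Besides those already described they were named for Gm6602 (score 202.99), the RNase P RNA gene Rprl1 (450.29), 4930529K09Rik (152.57), Cdh9 (863.15), the semaphorin gene Sema3d (191.83), the zinc finger gene Zik1 (608.62), Gm19782 (172.2), Mgat4c (176.57), Opcml (151.8), Ntm (143.47) and the glutamate receptor gene Grm7 (185.28). Of the 15, 6 belonged to the list of adhesion and synapse organising genes described below: Adgrl2, Slitrk6, Cdh18, Cdh9, Opcml and Ntm. The longest empty stretch beside any isolated peak, 4951.39 kb, lay to the left of a peak named for Dach1, a transcriptional regulator, at chr14:98567047-98568476. The median distance to the nearest peak was 398 kb in the isolated peaks and 27.6 kb in the others.

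**Figure D3:**
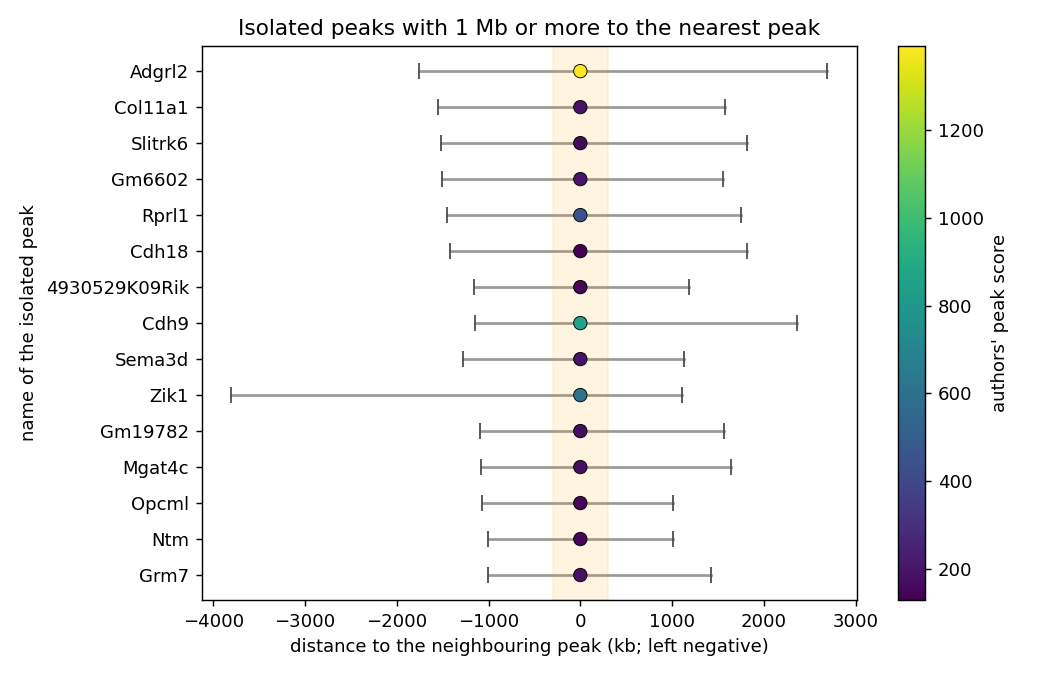
Distance in kb from each of the 15 isolated peaks with 1000 kb or more on both sides (points at 0, coloured by the authors' score) to the neighbouring peak on the left (negative) and right (positive); the shaded band marks the 300 kb of the rule. Adgrl2 combines the longest nearest distance, 1761.88 kb, with the highest score of the 15, and Zik1 has the longest single side, 3804.04 kb.

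At the threshold itself, the 3 peaks just inside were named for 3830403N18Rik (300.156 kb, score 182.49), 1700008P02Rik (300.243 kb, 115.64) and A430085M09Rik (300.377 kb, 81.06). The 3 just outside were named for the ribosomal protein gene Rps23 (299.992 kb, 200.48), the proteoglycan gene Vcan (299.836 kb, 91.53) and Tm4sf1 (299.642 kb, 182.7). Their scores overlapped.

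Genes of neuronal adhesion and synapse organisation were the most frequent neural group among isolated peaks, by a list chosen with earlier results known. They named 60 of 575 (10.4%, interval 8.06 to 13.2%), and 1.74% of all placed peaks carried such a name. Counted once per name, they were 40 of the 506 names of isolated peaks (7.91%) against 1.01% of the names of all placed peaks. Read the other way, 17.3% of the 346 peaks of the group were isolated, against 2.89% of all placed peaks. The share was 1.69% for peaks 50 to 100 kb from their neighbour, 2.76% at 100 to 300 kb and 10.4% from 300 kb. The group was frequent but not strong: its isolated peaks had a median score of 171 and a median width of 878 bp, against 178 and 955 bp for all its peaks. The list also holds genes outside the adhesion families, among them Csmd, Dlg2, Dpp6, Dpp10, Magi, Nbea and Macrod2 genes. The share was a result added after the data were seen.

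Within the group, Adgrl2 was followed by score by Cadm1, an immunoglobulin-type synaptic adhesion molecule, with 958.41 at chr9:47337903-47340108 and a width of 2205 bp. The next was Cdh9 with 863.15 at chr15:17195949-17197562, although the nearest peak of the same name, on its left, scored 87.73. Cntnap5a, a contactin-associated protein of the neurexin superfamily, had 814.66 and 638.09 in neighbouring isolated peaks and 129.31 in another. High and low scores thus occurred under 1 name.

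Families within the group differed in how many of their peaks were isolated. Of 8 peaks named for the IgLON genes Lsamp, Negr1, Ntm and Opcml, which encode small membrane-anchored adhesion proteins, 5 were isolated, with scores from 143.47 to 246.19. Of 21 peaks named for contactin-associated genes, 10 were isolated (84.95 to 814.66), and of 49 named for classical cadherins, 13 (84.12 to 863.15). The protocadherins, which include large clustered gene arrays, had 5 isolated peaks of 62, and these ran from 94.08 to 144.29. Slitrk, Lrrtm, Flrt and Lingo genes, leucine-rich organisers of synapses, had 9 of 45, led by Lrrtm1, a postsynaptic partner of neurexins, with 477.25. Latrophilins had 2 of 13, with Adgrl3 at 276.54. Tenm2, a teneurin that binds latrophilins, had an isolated peak of 292.86, and Dlg2, a postsynaptic scaffold, had 3, with 541.62, 127.18 and 122.54. These counts are small and were not compared by a test.

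**Figure D4:**
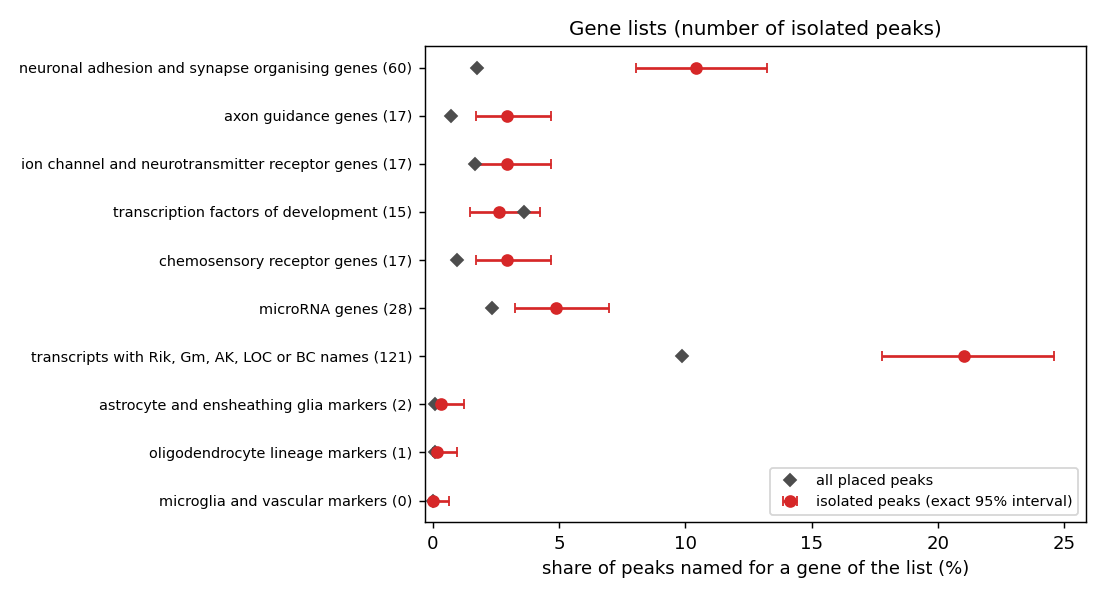
Share (%) of the 575 isolated peaks named for a gene of each list (red, with exact 95% intervals for counting error) and share of all 19880 placed peaks (grey diamonds); the number of isolated peaks stands in brackets. Adhesion genes are at 10.4% against 1.74%, Rik, Gm and similar names at 21.0% against 9.87%, and developmental transcription factors at 2.61% against 3.63%.

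Axon guidance genes, which encode the cues and receptors that steer growing axons and migrating cells, named 17 isolated peaks (2.96%, interval 1.73 to 4.69%) against 0.729% of all placed peaks. Among ligands, Efna5, a membrane-bound ephrin, had the highest score, 743.8, in a peak of 3398 bp at chr17:63229161-63232559. The secreted ligands Slit3, Slit2 and Sema3d had 316.04, 235.12 and 191.83. Among receptors, Plxna4, a semaphorin receptor, had 700.29 at chr6:32536966-32538874, the co-receptor Nrp2 355.12 and Plxna2 286.66. The Eph receptors Epha6, Epha7 and Epha4 had 274.07, 103.62 and 80.11, the netrin receptor Dcc 239.74 and the Slit receptor Robo2 164.96. Ligands and receptors both spanned most of the range of scores in this group.

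Ion channel and neurotransmitter receptor genes also named 17 (2.96%, interval 1.73 to 4.69%), where 1.67% of all placed peaks carried such a name, just below the interval. That margin is narrow, and 3 of the 17 peaks were counted only through a synonym, as given below. Grik3, a kainate receptor subunit, led with 927.45 and 2686 bp at chr4:125166796-125169482. Gabrg1, a GABA-A receptor subunit, had 885.36 at chr5:71152721-71153983. The potassium channel genes Kcnq5 and Kcnk9 had 693.34 and 577.97, and the modifier subunit Kcnv1 456.76 and 147.8. The group also held 3 peaks listed as C130030K03Rik, counted here because that name is a synonym of the kainate receptor gene Grik2, with 151.75, 133.79 and 105.2. The deposited list also has peaks named Grik2 and so keeps both names apart. The share without these 3 peaks was not computed, so no excess is read from the group. The lowest score of the group was 84.69, for the inward rectifier Kcnj2.

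Transcription factors of development, by contrast with the adhesion genes, were not more frequent among isolated peaks: 15 (2.61%, interval 1.47 to 4.27%) against 3.63% of all placed peaks, which lies inside the interval. Of the 722 peaks named for this list, 2.08% were isolated. The 15 include 1 peak of Rbfox1 (205.74), which encodes an RNA-binding splicing regulator and not a transcription factor. The highest score was that of Tshz3, a teashirt zinc finger factor, with 1151.24 in a peak of 3723 bp at chr7:37480062-37483785, and its only other peak, of 152.27, was isolated too. Foxp2, a forkhead factor, had 530.8, Tshz2 316.83, Foxp1 264.13 and Zic1, a factor of bulb interneuron progenitors, 229.5. The isolated peak of Sox11, a factor of immature neurons, had 222.93.

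Chemosensory receptor genes, the olfactory and vomeronasal receptors that sensory neurons outside the bulb express from large gene clusters, named 17 isolated peaks (2.96%, interval 1.73 to 4.69%) against 0.946% of all placed peaks. The highest score belonged to Vmn2r75 with 824.33 at chr7:93267022-93268744, followed by Olfr362 with 591.17, Vmn2r12 with 355.85 and Vmn2r98 with 353.04. Their median was 148. No other peak carried the name in 16 of the 17.

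MicroRNA genes named 28 (4.87%, interval 3.26 to 6.96%) against 2.35% of all placed peaks. By distance to the nearest peak, the share was 3.02% under 1 kb and 3.70% at 1 to 10 kb. It was 1.32% at 50 to 100 kb and 2.51% at 100 to 300 kb. After Mir1904 came Mir6378 with 424.83, Mir7224 with 295.19, Mir222, Mir669h with 269.94 and Mir6368 with 206.27. These peaks were narrow, with a median of 782 bp against 963 bp over all isolated peaks, and their median score was 146, like the 145 of all microRNA-named peaks. Long non-coding RNA genes named 90 isolated peaks (15.7%, interval 12.8 to 18.9%) against 6.17%. Their median score was 202 and their median width 997.5 bp, against 176 and 931 bp for all placed peaks of that class. The highest was A530053G22Rik with 945.2. The long non-coding share rose by steps with distance to the nearest peak. It was 4.74% at 10 to 50 kb, 6.53% at 50 to 100 kb and 10.5% at 100 to 300 kb.

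Protein-coding genes correspondingly named fewer isolated peaks, 449 (78.1%, interval 74.5 to 81.4%) against 89.7% of all placed peaks. The coding share fell by steps too, from 92.2% at 10 to 50 kb to 90.4% at 50 to 100 kb and 84.6% at 100 to 300 kb. The remaining 8 isolated peaks were named for 7 pseudogenes and the RNase P RNA gene Rprl1. Names of the Rik, Gm, AK, LOC or BC type, given to transcripts before a function was known, were on 121 (21.0%, interval 17.8 to 24.6%) against 9.87%, and they cut across the coding and non-coding classes.

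Marker genes of other cells of the bulb named few isolated peaks. Glul, the glutamine synthetase of astrocytes, had 547.07 and the gap junction gene Gja1 had 185.67, which made 2 isolated peaks for astrocytes and ensheathing glia (0.348%) against 0.0956% of all placed peaks. Galc, an enzyme of myelin lipid turnover, had the only isolated peak of the oligodendrocyte list, 278.56 (0.174% against 0.0956%). Microglial and vascular markers had 0 of 575, which allows a share of up to 0.639%, and 0.0302% of all placed peaks carried such a name.

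The isolated peaks with the highest scores were a mixed set of genes. Gm14920, which matched the histone variant gene H2ab1 as a synonym, led with 1706.32 and 3079 bp at chrX:114200492-114203571. Gm11487 followed with 1432.92 at chr4:72955475-72957856, and Med12l, a Mediator subunit gene, with 1423.3 at chr3:58809205-58811607. After Adgrl2 and Tshz3 came Mctp1, a calcium-binding C2 domain protein, with 1144.69, and Impg1, a retinal matrix proteoglycan, with 1135.11. Nfya, a subunit of the CCAAT-binding factor, had 984.28, and B3gat1, the enzyme that makes the HNK-1 carbohydrate of neural cells, had 971.91. Each of the 7 peaks over 1000 scored higher than both its neighbours, whose scores ran from 84.15 to 686.82. This follows largely from the choice by score, since only 1.11% of all placed peaks scored over 1000.

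The widest isolated peaks overlapped this set only in part. Mageb5 had the widest, 3969 bp with a score of 697.05 at chrX:89086012-89089981, followed by Tshz3, Adgrl2 and Efna5. Fat4, a giant atypical cadherin, had 3270 bp with 628.47, and Fzd1, a Wnt receptor, 2511 bp with 853.59. Pdha2 had 2833 bp with 773.92, and Spanxn4 2448 bp with 666.38. The narrowest were named for Ddx18 (351 bp, score 154.15), BC048507 (398 bp, 134.78), 4930533P14Rik (407 bp, 158.3), Mir5127 (445 bp, 105.79) and Kcnj2 (452 bp). The lowest scores were 80.07 for LOC100043315, 80.11 for Epha4 and 80.23 for Mir125b-2.

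The name stood on no other peak in 332 isolated peaks (57.7%, interval 53.6 to 61.8%) against 48.1% of all placed peaks. This was not particular to isolation: the share was 57.5% for peaks 10 to 50 kb from their nearest neighbour, 58.6% at 50 to 100 kb and 54.9% at 100 to 300 kb, and only peaks closer than 10 kb had low shares (31.5% at 1 to 10 kb and 8.66% under 1 kb). A neighbouring row carried the same name in 241 (41.9%) against 51.9% of the other placed peaks, even though that neighbour was at least 300 kb away. The remaining 2 isolated peaks, named for Gm16513 and Gm10486, shared their name only with peaks beyond their neighbours.

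Some names gathered several isolated peaks. There were 53 names with at least 2, covering 122 isolated peaks, and 13 names with at least 3. Cntnap2, a contactin-associated protein of axons, had the most: 5 of its 7 peaks were isolated, spread over 2625.73 kb, with scores of 253.97, 89.62, 89.57, 287.11 and 212.87 in order along chromosome 6. All 4 peaks of Efna5 were isolated, over 2003.16 kb, with 381.13, 80.97, 209.03 and 743.8. Cdh7, a classical cadherin, had 253.09, 127.93 and 84.12, and all of its peaks were isolated as well. Of 5 peaks named for Nova1, a neuronal splicing factor, 3 were isolated, with 156.06, 201.35 and 327.4. Dmd, the dystrophin gene, had 85.11, 136.53 and 90.9 in 3 of its 6 peaks. Under 1 name, isolated peaks could thus rank high and low in the list, as for Efna5.

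**Figure D5:**
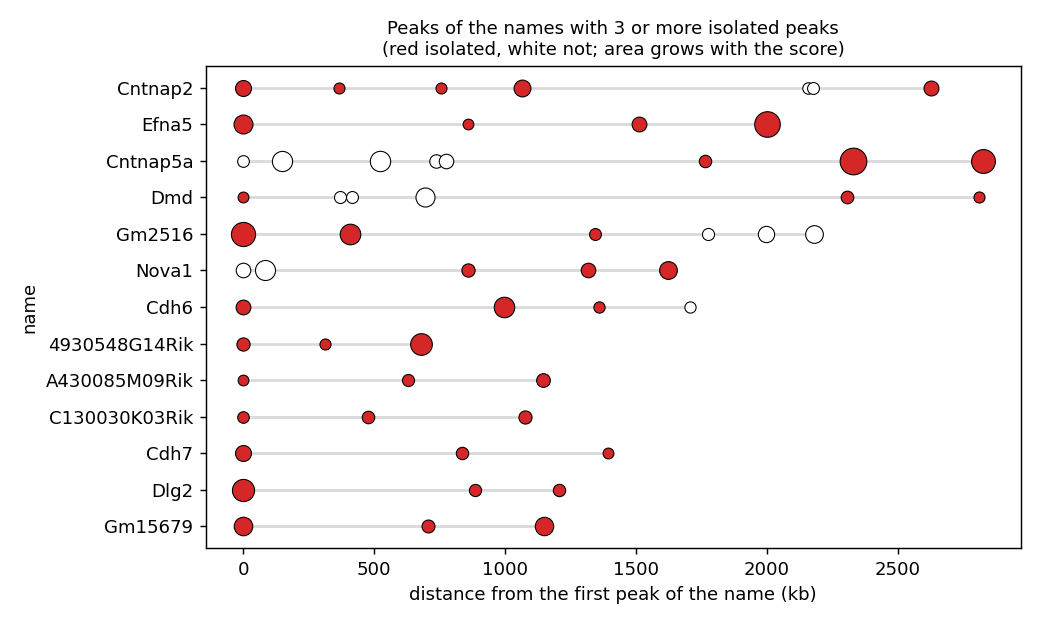
Position (kb from the first peak of the name) of every peak of the 13 names with 3 or more isolated peaks; red points are isolated, white points are not, and the area of a point grows with the authors' score. Cntnap2 spans 2625.73 kb with 5 isolated peaks of 7, and Efna5 has 4 of 4.

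Isolated peaks also followed one another, in part by construction. There were 286 with no isolated neighbour, and the other 289 lay in runs of consecutive isolated peaks: 69 runs of 2, 26 of 3, 14 of 4, 1 of 5 and 2 of 6. A row beside an isolated peak already has 300 kb or more free on 1 side, which favours runs. Of all 19859 gaps, 2259 were that long. Whether the runs exceed what these gaps alone would give was not tested. One of the longest runs, on chromosome 15, spanned 3284.3 kb and held a pair of Kcnv1 peaks, 3 of 4930548G14Rik and 1 of Csmd3, a gene for a large membrane protein of neurons. The other, on chromosome 1, spanned 3221.14 kb and held Serpinb3b, a pair of D830032E09Rik peaks and the 3 of Cdh7. The run of 5 on chromosome 10 spanned 1859.07 kb and held the 3 C130030K03Rik (Grik2) peaks after a pair of D030045P18Rik. Each run mixed scores, from 90.05 to 516.74 in the first and from 84.12 to 579.04 in the other.

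The gaps themselves were large, and for their length few coding genes lay between the names that border them. The 973 gaps that border isolated peaks summed to 593.705 Mb, 23.3% of the length of all 19859 gaps between neighbouring peaks. Gene order in the RefSeq table (GRCm38.p6) gave the protein-coding genes lying between the names on either side. Per Mb of gap there were 2.19 such genes beside isolated peaks and 6.19 in all gaps not beside them. The latter include the other gaps of 300 kb or more, which had 3.55. In counts, 1292 genes fell to 969 gaps beside isolated peaks and 11983 genes to 18689 other gaps. The genes beside isolated peaks were thus fewer per Mb but not per gap. The named genes are not counted, and 2 peaks of the same name give 0. The genes were not placed within the gaps, so these values are not gene densities of the gaps. Of the 571 isolated peaks that could be placed in this order, 293 had 0 coding genes between their name and the names on both sides, 206 had 1 to 4, 36 had 5 to 9 and 36 had 10 or more. The matching counts over all placed peaks are not given here, so these counts describe isolated peaks without setting them apart.

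The kind of gene differed along this scale, in part by construction. Adhesion genes named 47 of the 293 isolated peaks with 0 intervening coding genes, 13 of the 242 with 1 to 9 and 0 of the 36 with 10 or more. Chemosensory receptor genes named 0, 3 and 14. A neighbour of the same name always counts 0 genes on its side. Only 13 of the 60 isolated peaks of the adhesion list had a name on no other peak. The adhesion counts are therefore partly fixed by repeated names. The chemosensory counts are partly fixed as well, since these genes lie in large clusters and other receptors fall between the names. Matching counts over all placed peaks are not given here, so neither set of counts sets isolated peaks apart. Median scores were 185, 205 and 191 in these 3 classes and median widths 933, 993.5 and 913 bp, so peak size did not follow the number of genes passed over. The highest number, 95, belonged to Vmn1r94, a vomeronasal receptor gene at chr7:22937125-22937859 with a score of 164.16, and 80 of those 95 genes were vomeronasal receptors. Vmn1r121, Vmn1r94 and Vmn1r159 were consecutive isolated peaks in 1 receptor cluster, with 235.52, 164.16 and 81.94. Gm10486 on chromosome X had 85 coding genes between the names, and Krtap21-1, in a cluster of hair keratin-associated genes, had 48 and a score of 723.56.

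The 1201 distinct coding genes between the names beside isolated peaks were set against all coding genes of the table by family. The 2 sets are not alike. Genes between names mostly name no peak themselves (40 of the 1201 did), whereas the full set includes the genes that name peaks. Families that seldom name a peak are thus favoured among the 1201, and the shares are a description only. Genes with Gm or Rik names were the most numerous, 232 (19.3%) against 7.0%. Vomeronasal receptors were 136 of them (11.3%) against 1.64% of the 21631 coding genes, and 38.3% of that family lay between such names. Olfactory receptors were 164 (13.7%) against 5.13%, serpins 26 (2.16%) against 0.291%, keratin-associated genes 17 (1.42%) against 0.259% and cytochrome P450 genes 17 (1.42%) against 0.458%. Prolactin family genes were 3 (0.25%) against 0.116%, and defensins 0 against 0.328%.

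Isolated peaks were found on every chromosome except Y, which had 2 peaks in all. Chromosome X had the highest share, 48 of 789 peaks (6.08%, interval 4.52 to 7.99%), followed by chromosome 1 with 53 of 1174 (4.51%). Chromosome 19 had the lowest share of those with any, 5 of 582 (0.859%, interval 0.28 to 1.99%), and chromosome 11 had 19 of 1422 (1.34%). These shares follow in part by construction, since the rule acts on the spacing of peaks. Chromosome X had 4.82 peaks per Mb, the fewest of the chromosomes with any isolated peak. Chromosomes 11 and 19 had the most, 11.98 and 10.02 per Mb. The order was not strict: chromosome 17, with 9.69 per Mb, had 30 of 892 peaks isolated (3.36%). Whether any share differs from what peak density alone would give was not tested. The isolated peaks of X had a median score of 165 against 199 for isolated peaks of autosomes, and the other peaks of X had 176 against 213, so the gap between X and autosomes was of like size in both. On X the isolated names included the synaptic genes Il1rapl2 (472.32), Il1rapl1 (348.22) and Pcdh19 (144.29 and 111.84) and the serotonin receptor gene Htr2c (121.92).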

How the data were processed

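The sources name 2 Sp9 immunoprecipitation libraries and 1 input library. The single deposited list holds, for each peak that the authors called shared, a position, a score and a gene name, pooled over libraries. Bowtie2 2.2.4, MACS 1.4.2 and mm9 are named per the submitters' processing notes, without roles or settings. How peaks were called shared, how the score deposited by the authors was calculated and which gene models named the peaks is unknown here. The score was used only to rank peaks within the list. Read depth is unknown. Peaks of 1 library only were not analysed here, so isolation holds within the shared list.

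Distances were counted from edge to edge. Of 19979 rows, 99 on random sequences were left out. The authors' positions are printed as deposited, and whether starts count from 0 or 1 is not stated. Of 13383 distinct names, 12806 matched a RefSeq symbol (GRCm38.p6), 527 a synonym of only 1 gene and 50 nothing; among the latter, 18 looked like calendar dates. Only names, classes, the order of genes and the mature microRNA sequences were taken from that table. Promoter windows were not searched, because only 313 of the 396 coding genes named by isolated peaks (79.0%) had one, under the 80% needed.

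The isolated peaks, the 10 gene lists and the rule for the genes named were chosen with earlier results of these data known. The rule took the 10 most distant, the 10 highest-scoring, the 10 widest and the 5 narrowest isolated peaks, the 3 on each side of the threshold, names with several isolated peaks, the longest runs and up to 6 members of each list by score. Others were named after their values were seen. Some genes that the rule would name are not reported here. There is no replicate value per peak, so no test was made. Shares carry exact Clopper-Pearson intervals at 95%. The distance rule was tested on simulated positions. Python 3.11.15 with pandas 2.3.3, numpy 2.4.6, scipy 1.17.1 and matplotlib 3.10.9 was used. The alternatives were start-to-start distance, other thresholds, chromosome ends kept, low scores left out and touching rows merged.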

Additional observations from a re-analysis of the deposited data

How the results depend on the processing

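No paired analysis was possible because the list gives 1 value per peak over both immunoprecipitation libraries and no value for a single library. The number of isolated peaks was 1383 at a threshold of 200 kb, 151 at 500 kb and 1004 when only rows scoring at or above the list's median were kept, a setting that removes neighbours and so lengthens gaps. The median width became 914 bp at 500 kb, 1015 bp without rows scoring under 100 and 1248 bp with rows at or above the median only. The median score became 172.2, 224.845 and 362 in the same order, the last 2 by construction. The share named for a coding gene was 84.2% with rows at or above the median only, and the share whose name stood on no other peak was 51.2% without rows under 100 and 43.8% with rows at or above the median only. The share named for adhesion genes, a result added after the data were seen, was 6.94% at 200 kb and 18.5% at 500 kb. Each was above the 1.74% of all placed peaks. With rows at or above the median only it was 6.47%, and the matching share over all such rows is not given here. The number was 662 without rows scoring under 100, 581 with start-to-start distance, 582 with chromosome ends kept and 575 with touching rows merged, each within 1.5 times the main count. All other median widths stayed between 918 and 1007 bp and all other median scores between 176.57 and 212.87. These bounds come from the 575 peaks of the main setting, which are not replicates. All other shares stayed within the interval of the main value. Depth and the spread between libraries are unknown, so no single peak carries an error, and a gap in the shared list may hold peaks of 1 library.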
